A study of Homo sapiens with 6 samples.

Results

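Lactoferrin and 9 further genes of iron binding, uptake, storage, export and sensing were followed in cultured SH-SY5Y cells, an established human line derived from a neuroblastoma. The members were the rows of the deposited gene table whose name was LTF, TFRC, STEAP3, SLC11A2, FTH1, FTL, NCOA4, SLC40A1, IREB2 or HMOX1, which gave 10 of the 60612 genes listed. They were selected on the FPKM values of this same comparison, LTF being among the genes with the strongest falls, so the members' differences between the groups are given below as a description and not as a test of iron handling. One group of 3 libraries came from cells infected with a control vector (titled stuffer), and the other 3 came from cells infected to overexpress CDKN2B-AS1, a long noncoding RNA. Both groups carried a vector, so uninfected cells are not part of the comparison. The labels do not say what drives the insert or whether the 3 libraries of a group came from different cultures, and the spread that the p-values rest on may therefore be technical. The headers of the value columns carry a tag that differs between the groups and that no label explains, so whatever it stands for cannot be told apart from the insert.

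CDKN2B-AS1 itself stood at 0.272, 0.288 and 0.191 FPKM in replicates 1, 2 and 3 of the control vector and at 0.338, 0.304 and 0.353 FPKM in the overexpression replicates. FPKM counts fragments per kilobase of gene length, scaled to the library's assigned total, and libraries are listed in replicate order throughout. The group means differed only 1.33-fold, so the second group is called "labelled overexpression" here, and directions are those of the labels. Depth recovered from the values ran from 20466583 to 48996425 fragments per library. Of 9 markers of adrenergic neuroblastoma, 8 were high enough to test and their summed level ran from 828 to 988 FPKM in the control vector and from 937 to 1013 FPKM in the labelled overexpression libraries. The exception was TH, tyrosine hydroxylase, which was listed at 0 in 4 of the 6 libraries.

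Iron enters most cells on transferrin, which is taken up by the transferrin receptor. In the endosome the iron is released, reduced and carried into the cytosol. Surplus iron is stored in ferritin, a shell of heavy and light chains, or leaves the cell through ferroportin. A pair of iron regulatory proteins adjusts this balance after transcription: when iron is scarce they bind a hairpin, the iron-responsive element, which blocks translation where it lies before the coding sequence and stabilises the message where it lies after it. Neurons and catecholamine-producing cells depend on this control because tyrosine hydroxylase and the respiratory chain need iron while free iron damages lipids.

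The hairpin that ties several of these messages together is shown first, since it separates the members into those with it before and those with it after the coding sequence. Transcripts of GENCODE v29 (GRCh38) were searched on their sense strand for a C, 5 bases, the loop CAGTGN and 5 bases, with all 5 stem bases able to pair (G with U allowed). This was met in 4 of the 10 members, against 289 of 19684 protein-coding genes (1.47%). FTH1, FTL and SLC40A1 each held 1 match in exon 1, in the 5′ UTR, and TFRC held 4 in the 3′ UTR, in exon 18 of the transcript read. The 6 loop bases are in capitals, and a stem base pairs with its mirror on the other side of the loop.
FTH1, chr11:61967576-61967600, minus strand: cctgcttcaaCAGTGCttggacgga
FTL, chr19:48965337-48965361, plus strand: cttgcttcaaCAGTGTttggacgga
SLC40A1, chr2:189580663-189580687, minus strand: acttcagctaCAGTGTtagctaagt
TFRC, chr3:196050981-196051005, minus strand: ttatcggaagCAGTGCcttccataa
TFRC, chr3:196050577-196050601, minus strand: ttatcgggagCAGTGTcttccataa
TFRC, chr3:196050512-196050536, minus strand: gtatcggagaCAGTGAtctccatat
TFRC, chr3:196050465-196050489, minus strand: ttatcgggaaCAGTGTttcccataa
SLC11A2, chr12:50988271-50988295, minus strand: ccatcagagcCAGTGTgtttctatg
The last of these, in the 3′ UTR of 5 SLC11A2 transcripts, has 4 of 5 stem pairs and is shown because SLC11A2 is the other uptake gene known for such an element. With 4 pairs allowed the letters occur in 11.2% of protein-coding genes, LTF and IREB2 among them. A match describes letters, not a working element.

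LTF encodes lactoferrin, a secreted iron-binding glycoprotein of the transferrin family known from milk and neutrophil granules. It was the member that differed most. LTF (ENSG00000012223, chromosome 3, 46435645 to 46485234, minus strand, in the table's GRCh38 coordinates) stood at 5.20, 6.90 and 4.27 FPKM in the control vector libraries and at 1.48, 0.870 and 1.16 FPKM in the labelled overexpression libraries. The lowest control library was thus well above the highest labelled overexpression library. Group means of 5.46 ± 1.33 and 1.17 ± 0.303 FPKM (SD, n = 3 each) gave a ratio of 0.214. These levels rested on 936, 799 and 739 fragments in the control vector and on 162, 71 and 226 fragments in the labelled overexpression libraries, whose depths differed. On the log2(FPKM + 0.5) scale of the fit, which understates changes of low genes, the difference was -1.83, with a 95% interval of -2.37 to -1.29. That was the 6th largest fall of the 13984 tested genes.

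**Figure D1:**
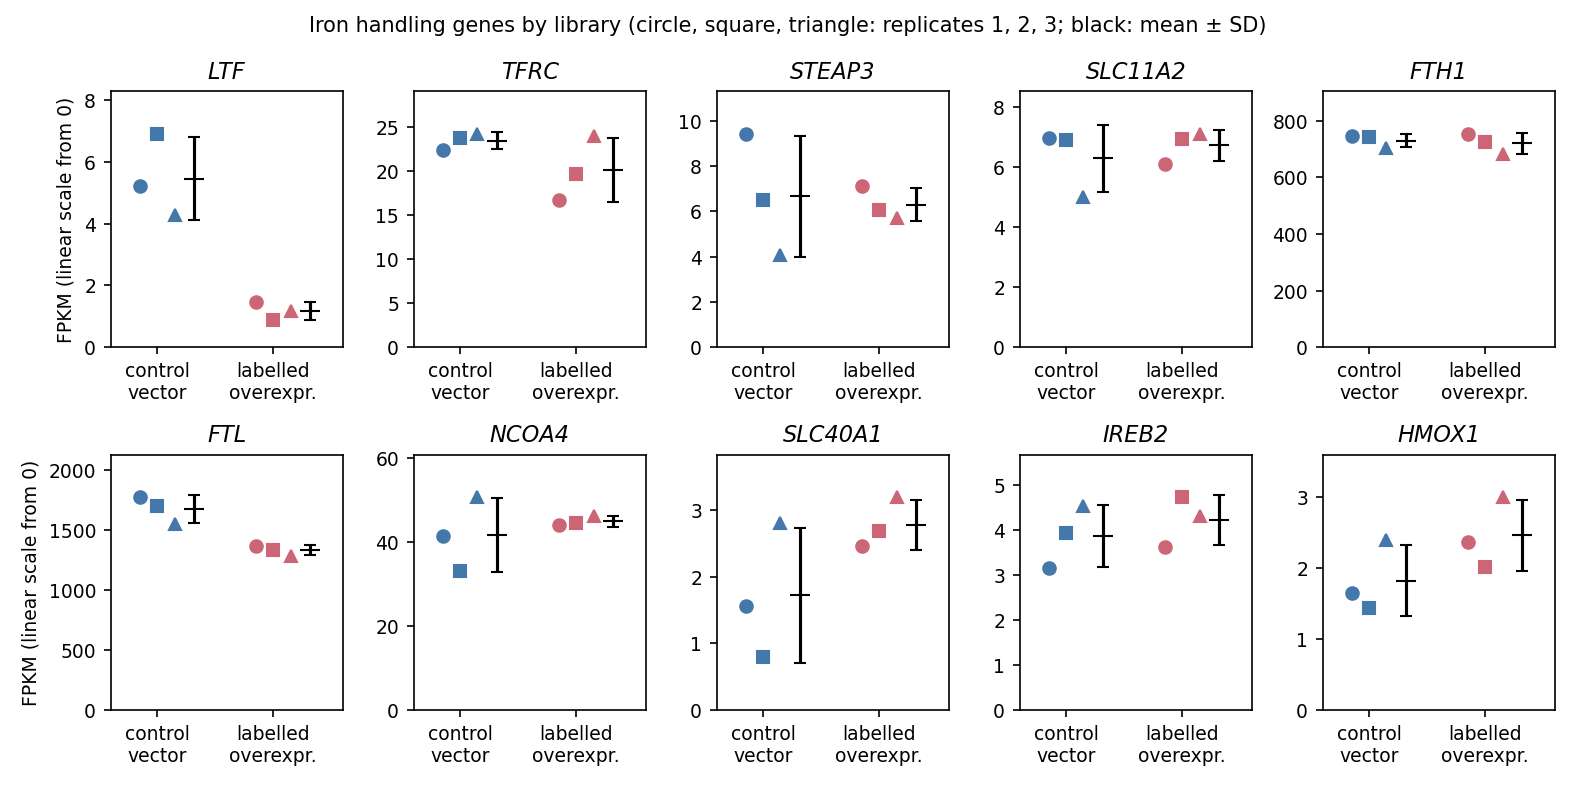
FPKM of the 10 iron handling genes in each library, on linear axes that start at 0. Circles, squares and triangles are replicates 1, 2 and 3, and the black bar is the mean ± SD of 3 libraries. LTF and FTL are the panels whose groups do not overlap.

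With this LTF moved from the 7th highest of the 10 members in the control vector group to the lowest in the other. No other row of the table overlaps LTF on either strand. Of the rows within 250 kb, CCR1, CCR2, CCR3, CCRL2 and the flanking RTP3 were listed at 0 in all 6 libraries. LRRC2, the next gene on the other side of RTP3, ranged from 0 to 0.806 FPKM. The highest of the other rows in that window was TMIE, at 0.149 to 2.51 FPKM, so LTF stood out from its neighbourhood in the control vector libraries. Leukocyte and neutrophil markers, of cells in which lactoferrin is abundant, were at 0 in all libraries for 7 of 8 genes, MPO, ELANE, S100A8 and PTPRC among them, and CSF3R reached 0.00263 FPKM in a single control library. The 8 markers of secretory epithelium summed to 0.0314 to 0.524 FPKM in the control vector and to 0.394 to 0.865 FPKM in the labelled overexpression libraries, with KRT5 and KRT14 at 0 throughout, and the part of these markers in the LTF values was not tested. In bulk RNA, fewer LTF-expressing cells and less LTF RNA per cell cannot be told apart.

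Across the 6 libraries 174 of 13983 other tested genes followed LTF at a Pearson r above 0.95, a measure to which the separation of the groups contributes. The nearest were AC000089.3 (r = 0.999), JMJD7 (0.998), RP11-295G20.2 (0.995), LINC00571 (0.994) and RPS18 (0.993). Their differences, from -0.36 for LINC00571 to -0.70 for RPS18 on the log2 scale, were smaller than that of LTF. Of these, RP11-295G20.2 reached 1 FPKM only in the control vector libraries, so it entered the fit through the group where it is high. FTL was the member nearest to LTF, with r = 0.947 over the same 6 libraries.

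LTF was the only member to pass an adjusted p of 0.05 in limma-trend with Benjamini-Hochberg adjustment over all tested genes, that is 1 of 10, where 1.14% of all tested genes passed and 0.608% passed lower. Because the same contrast led to the choice of LTF, nothing is read from that count. The call rested on the whole set of libraries: it was kept without control vector replicate 3 (limma adjusted p = 0.0206) and lost without control vector replicate 1 or 2 (0.0844 and 0.0820) and without labelled overexpression replicate 1, 2 or 3 (0.0655, 0.104 and 0.0727). The difference itself stayed between -1.98 and -1.66 in these settings. It was also not called without a filter on low values or without the mean-variance trend (limma adjusted p = 0.132 and 0.104).

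Among the uptake genes, TFRC, the transferrin receptor (chromosome 3, 196027183 to 196082096, minus strand), was steady in the control vector at 22.3, 23.8 and 24.2 FPKM and spread in the labelled overexpression libraries at 16.7, 19.6 and 24.0 FPKM. Replicates 1 and 2 of the latter lay below every control, while replicate 3 lay within the control range. Mean levels were 23.4 ± 0.968 and 20.1 ± 3.65 FPKM (SD, n = 3 each), and the log2 difference was -0.23 with a 95% interval of -0.55 to 0.10. It was -0.11 without labelled overexpression replicate 1 and -0.36 without replicate 3. Tested genes of like length (within 0.25 on the log2 scale of gene length, 1920 genes) had a median of 0.13. Among the genes whose pattern was most like that of TFRC were RPS6KC1 (r = 0.991), CTC-308K20.3 (0.985), ZIK1 (0.985) and ZCCHC8 (0.982), with the same order among the labelled overexpression libraries.

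STEAP3, the endosomal ferrireductase that reduces transferrin-delivered iron (chromosome 2, 119223831 to 119265652, plus strand), stood at 9.40, 6.51 and 4.05 FPKM in the control vector and at 7.10, 6.06 and 5.69 FPKM in the labelled overexpression libraries. The control libraries enclosed all 3 values of the other group. The log2 difference of -0.01 had an interval of -0.59 to 0.57, and its sign turned under several settings. STEAP3-AS1, on the other strand, shares 500 exon bases with it at 0.509 to 1.41 FPKM. SLC11A2, the divalent metal transporter DMT1 that moves iron out of the endosome (chromosome 12, 50979401 to 51028566, minus strand), had 6.97, 6.90 and 4.99 FPKM in the control vector and 6.12, 6.95 and 7.10 FPKM in the labelled overexpression libraries. Control replicate 3 was the low value and the other 5 libraries lay together, with a log2 difference of 0.10 (95% interval -0.29 to 0.50).

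The ferritin genes, FTL (chromosome 19, 48965309 to 48966879, plus strand) and FTH1 (chromosome 11, 61959718 to 61967634, minus strand), were by far the most abundant members. FTL, the light chain, which supports mineral formation in the ferritin core, was the 17th highest of the tested genes by mean control FPKM, and FTH1, the heavy chain, which oxidises iron on entry, was the 50th. FTL was lower in every labelled overexpression library, at 1371, 1339.6 and 1288.5 FPKM, than in any control library, at 1777, 1698 and 1548 FPKM. Mean FTL was 1674 ± 116 FPKM in the control vector and 1333 ± 41.6 FPKM in the other group (SD, n = 3 each), or 0.796 of the control. On the log2 scale the difference was -0.33 with a 95% interval of -0.52 to -0.13, and it did not pass over all genes (limma, Benjamini-Hochberg adjusted p = 0.109). The groups failed to overlap in 2 of 10 members, LTF and FTL, against 24.1% of all tested genes (14.2% higher and 9.90% lower). The members' share is near this background and, as the contrast chose them, nothing is read from it.

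**Figure D2:**
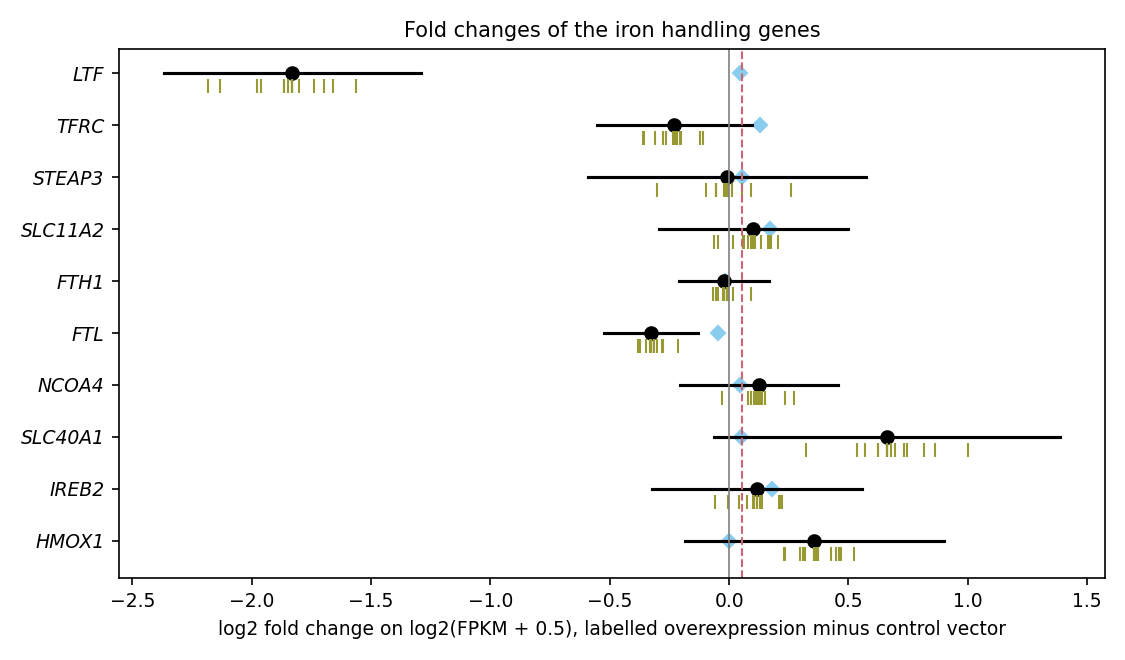
Log2 differences of the 10 genes, labelled overexpression minus control vector, with 95% intervals of the limma fit (black). Short ticks below are the alternative settings, light diamonds the median of tested genes of like length, and the dashed line the median of all tested genes (0.05). Only the intervals of LTF and FTL lie wholly on one side of 0.

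FTH1 showed no such step. It had 745, 741 and 704 FPKM in the control vector and 753, 725 and 681 FPKM in the labelled overexpression libraries, so the groups overlapped fully. The log2 difference was -0.02 with a 95% interval of -0.21 to 0.17 around it. The light to heavy chain ratio of FPKM was 2.29 ± 0.0923 in the control vector and 1.85 ± 0.0361 in the labelled overexpression libraries (SD, n = 3 each), where the highest library reached 1.89. This ratio was lower in all 3 labelled overexpression libraries than in any control. Its size rests on the gene lengths that FPKM divides by, 2004 bases for FTH1 and 871 for FTL. In fragments the control libraries had close values, 69790.8, 42971.4 and 58544.3 for FTL and 67336.1, 43163.6 and 61222.5 for FTH1. The ratio is therefore no measure of how many light chain messages there were per heavy chain message, and only its change between the groups is described. As this ratio was formed from genes chosen with the results known, it is given without a test.

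The heavy chain level needs a qualification that the table itself shows. BEST1, a chloride channel gene known from retinal pigment epithelium, lies on the other strand (chromosome 11, 61950063 to 61965515, plus) and shares 1267 exon bases with the 2004 bases of FTH1. BEST1 was listed at 159, 159 and 154 FPKM in the control vector and at 159, 145 and 149 FPKM in the labelled overexpression libraries. In fragments that is 0.927, 0.932 and 0.951 of the FTH1 number in the controls and 0.917, 0.865 and 0.951 in the others. No source used here states if strand was considered in counting, so fragments of the pair cannot be told apart, and the FPKM of FTH1 cannot be read as its full level. Summed, FTH1 and BEST1 gave 2833 ± 70.5 and 2756 ± 121 fragments per 1e+06 assigned (SD, n = 3 each), a ratio of 0.973. Per fragment of that sum, FTL had 0.538, 0.515 and 0.490 fragments in the control vector and 0.413, 0.430 and 0.421 in the labelled overexpression libraries. The separation of the groups in the light to heavy ratio was therefore also present with BEST1 added.

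Ferritin also has many pseudogenes, copies that share much of its sequence. The table lists 25 for FTH1, 7 of them at 0 in all libraries, and 16 for FTL, 9 of them at 0. Together they held 6.44% ± 0.412 of the heavy chain sum in the control vector and 6.22% ± 0.343 in the labelled overexpression libraries, and 1.11% ± 0.0900 and 1.08% ± 0.0776 of the light chain sum (SD, n = 3 each). The highest was FTH1P7, at 36.6, 45.6 and 39.9 FPKM in the control vector and 48.4, 44.5 and 35.3 FPKM in the labelled overexpression libraries. FTLP3 had 28.0, 30.9 and 26.8 against 23.9, 20.1 and 21.2 FPKM, lower in all 3 labelled overexpression libraries as FTL was. With pseudogenes added, the ratio of group means was 0.984 for the heavy chain and 0.796 for the light chain, within the spread of the values for the parent rows alone.

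**Figure D3:**
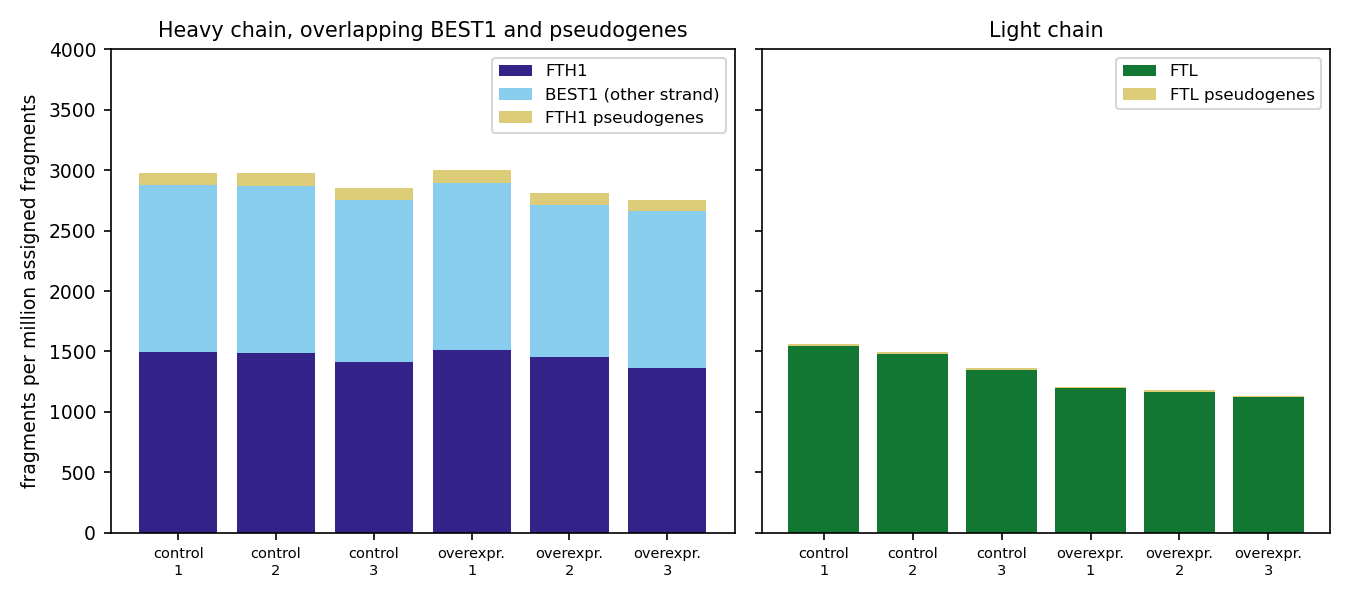
Assigned fragments in each library, scaled to a total of 1e+06, stacked by row of the table, for the ferritin heavy chain with BEST1 and the FTH1 pseudogenes (left) and the light chain with the FTL pseudogenes (right), on a shared linear axis from 0. BEST1 holds nearly as many fragments as FTH1 in every library, and the light chain bars are lower in the 3 labelled overexpression libraries.

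NCOA4 (chromosome 10, 46005088 to 46030623, minus strand), the cargo receptor that carries ferritin to the lysosome so that its iron is released, was the third most abundant member. It had 41.4, 33.1 and 50.6 FPKM in the control vector and 43.9, 44.5 and 46.3 FPKM in the labelled overexpression libraries. The latter lay close together inside the control range, and the log2 difference was 0.12 (95% interval -0.21 to 0.46). SLC40A1, the iron exporter ferroportin (chromosome 2, 189560590 to 189583758, minus strand), had 1.57, 0.792 and 2.80 FPKM in the control vector and 2.45, 2.69 and 3.19 FPKM in the labelled overexpression libraries. Control replicate 3 was the exception, above 2 of the 3 labelled overexpression libraries. The ratio of means was 1.62 on 97 to 660 fragments per library, and the log2 difference of 0.66 had a 95% interval of -0.07 to 1.39. Without control vector replicate 3 it was 1.00 (limma, Benjamini-Hochberg adjusted p = 0.101) and without replicate 2 it was 0.32 (limma, adjusted p = 0.587), so the size hung on single control libraries.

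HMOX1, heme oxygenase 1, which frees iron from heme (chromosome 22, 35380361 to 35394214, plus strand), had 1.64, 1.43 and 2.39 FPKM in the control vector and 2.36, 2.01 and 3.00 FPKM in the labelled overexpression libraries. Again control replicate 3 lay within the other group, and the log2 difference of 0.36 had a 95% interval of -0.19 to 0.90. It was 0.24 without control vector replicate 2 and 0.23 without labelled overexpression replicate 3. IREB2, one of the iron regulatory proteins that bind the hairpins printed above (chromosome 15, 78437431 to 78501453, plus strand), had 3.15, 3.93 and 4.51 FPKM in the control vector and 3.62, 4.72 and 4.31 FPKM in the labelled overexpression libraries. The groups overlapped, with a log2 difference of 0.12 (95% interval -0.32 to 0.56), near the median of 0.18 of genes of like length. Over the 6 libraries SLC40A1 had r = 0.935 with NCOA4 and r = 0.903 with HMOX1. All 3 were highest of the control libraries in replicate 3, and these points share libraries, so the values are descriptive.

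By level per gene length, the order in the control vector group was FTL, FTH1, NCOA4, TFRC, STEAP3, SLC11A2, LTF, IREB2, HMOX1 and SLC40A1. STEAP3, SLC11A2 and LTF were within their SDs of each other there, as were HMOX1 and SLC40A1. The 10 members had a median log2 difference of 0.05, as did all tested genes (0.05). All 10 reached the filter of 1 FPKM in at least 3 libraries, and LTF and SLC40A1 were each below 1 FPKM in a single library.

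Beside the hairpin, the members shared little in direction. Of those with it in the 5′ UTR, the log2 difference was -0.33 for FTL, -0.02 for FTH1 and 0.66 for SLC40A1, and TFRC, with it in the 3′ UTR, had -0.23. A hairpin in the 5′ UTR acts on translation, which RNA levels do not show. Across the transcriptome 166 tested genes held the same full match, which could lie anywhere in the transcript. Of these 166 genes 0 passed in limma-trend with Benjamini-Hochberg adjustment, against 1.14% of all tested genes. With so low a share nothing is read from the 0. An unadjusted limma p under 0.05 was found for 31 of them, or 18.7%, against 17.7% of all tested genes. The median difference of the 166 genes was 0.12. These values are no measure of iron-responsive control, which was not tested.

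Other genes of iron metabolism were read from the same fit, from 9 lists drawn up by textbook role, with 108 genes of which 84 were high enough to test. In limma-trend with Benjamini-Hochberg adjustment 1 was higher, 1 was lower and 82 did not pass, which is 2.38% against 1.14% of all tested genes. The groups did not overlap in 25, or 29.8%, against 24.1% of all. Their median log2 difference was -0.02. The lists, like the members, were chosen with earlier results of these data known, so nothing is read from these shares.

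CIAO2A, a component of cytosolic iron-sulfur assembly that is known to act on iron regulatory protein 1, fell. It had 68.9, 64.3 and 64.9 FPKM in the control vector and 39.1, 42.0 and 42.7 FPKM in the labelled overexpression libraries. The ratio of means was 0.625 and the log2 fold change -0.67 (SE 0.10, limma Benjamini-Hochberg adjusted p = 0.0280). GCH1, the first enzyme of tetrahydrobiopterin synthesis, the cofactor of tyrosine hydroxylase and a guard against ferroptosis, rose. It had 10.3, 13.7 and 14.8 FPKM in the control vector and 22.0, 23.4 and 26.7 FPKM in the labelled overexpression libraries. The ratio was 1.86 and the log2 fold change 0.88 (SE 0.16, limma Benjamini-Hochberg adjusted p = 0.0390). Both kept their sign in all 17 alternative settings, and both, like LTF, kept their call on leaving out a library only for control vector replicate 3. Without another library the limma adjusted p was 0.0789 to 0.128 for CIAO2A and 0.0988 to 0.144 for GCH1. The calls were also lost without the filter (limma adjusted p = 0.117 and 0.186) and without the trend (0.135 and 0.137), and that of GCH1 with limma-voom (0.0505).

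The other lists had no call. In the uptake list (10 tested of 19), SLC39A14, a metal transporter, stood at 15.3 ± 3.30 against 22.2 ± 0.547 FPKM. TFR2, the second transferrin receptor, which senses iron in liver and erythroid cells, had 5.81, 4.26 and 2.23 FPKM in the control vector and 1.52, 2.14 and 2.13 FPKM in the labelled overexpression libraries. Control replicate 3 of TFR2 was close to the other group. MELTF, the membrane-bound melanotransferrin of the same family as LTF, had 0.595 ± 0.144 against 1.14 ± 0.117 FPKM (SD, n = 3 each). MELTF reached 1 FPKM only in the labelled overexpression libraries and so entered the fit through the group where it is high, and its difference is no support for a direction. Their limma adjusted p was 0.144, 0.195 and 0.272. The transferrin gene TF itself was at 0 in the control libraries and averaged 0.00899 FPKM in the others. Lactoferrin has a known receptor in ITLN1, which was listed at 0, and LRP1, a scavenger receptor that binds it, had a log2 difference of 0.42 (limma adjusted p = 0.562).

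**Figure D4:**
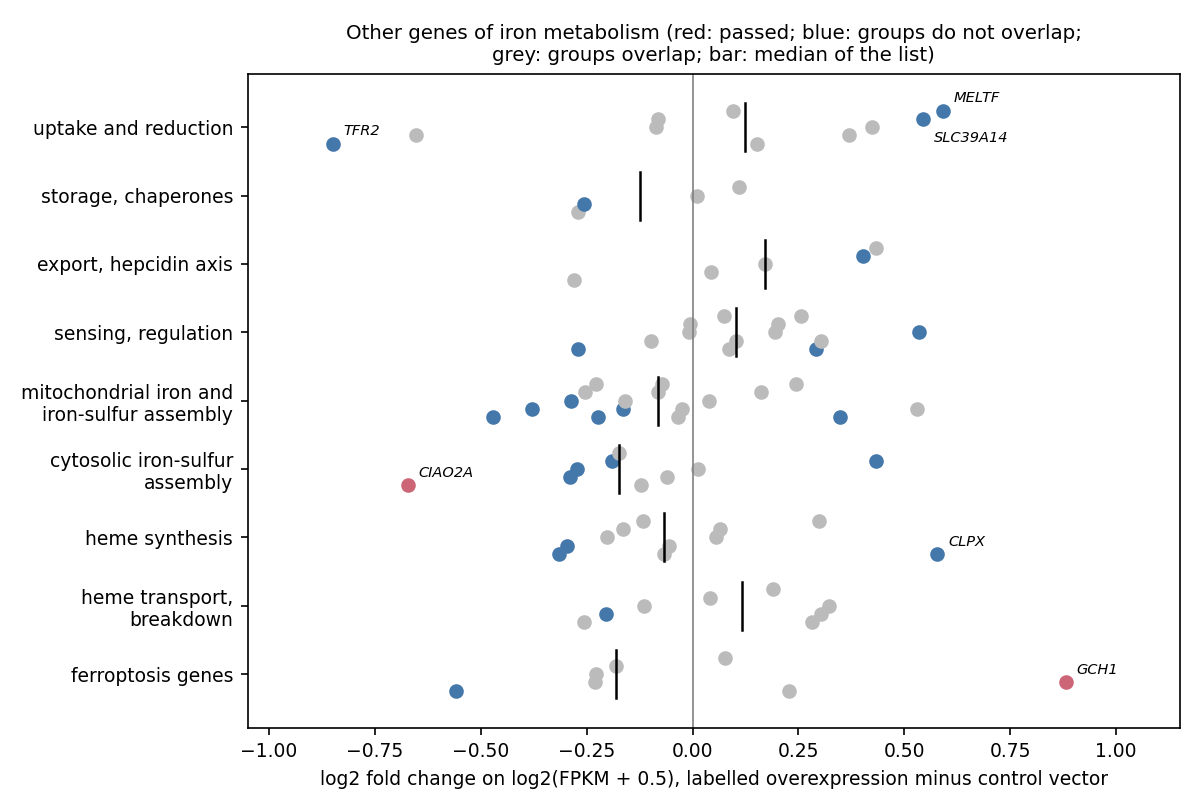
Log2 differences of the 84 tested genes in 9 lists of iron metabolism, labelled overexpression minus control vector. Each point is a gene, red where it passed the adjusted threshold, blue where the groups did not overlap and grey otherwise, and the bar is the median of its list. CIAO2A and GCH1 are the red points.

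Storage and iron chaperone genes (4 tested of 5) included BOLA2 at 55.3 ± 1.82 against 46.3 ± 3.45 FPKM, GLRX3 at 38.5 ± 1.83 against 32.1 ± 5.31 FPKM and PCBP1, a chaperone that loads ferritin, at 25.8 ± 0.590 against 27.9 ± 3.05 FPKM (SD, n = 3 each). BOLA2 shares exons with a readthrough gene and PCBP1 with an antisense RNA, so both are uncertain. In the export and hepcidin list (5 tested of 11), APP, which binds ferroportin, had 23.3 ± 3.27 against 31.0 ± 5.22 FPKM, and NEO1 and BMPR1A, receptors of the hepcidin axis, had log2 differences of 0.43 and -0.28. Both moved with single control libraries: without control vector replicate 1 they were 0.11 and -0.55, and BMPR1A was -0.16 and -0.13 without replicates 2 and 3. Hepcidin itself (HAMP) and the ferroxidase HEPH were listed at 0. All 13 genes of sensing and regulation were testable. HERC2 and FBXL5, parts of ubiquitin ligases that turn over NCOA4 and IREB2, had 0.54 and -0.27, and NFE2L2, the transcription factor NRF2 that drives ferritin and HMOX1, had 0.29. With the length trend removed HERC2, FBXL5 and NFE2L2 were 0.32, -0.32 and 0.21, and NEO1 and BMPR1A were 0.30 and -0.44.

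Iron-sulfur and heme synthesis genes had medians below that of all tested genes, and CIAO2A alone passed among them. The mitochondrial list (17 tested of 18) had a median of -0.08, with ISCA2, ISCA1 and FDXR at -0.47, -0.38 and -0.29 and limma adjusted p of 0.188, 0.211 and 0.308. The cytosolic list (9 tested of 9), with CIAO2A, had a median of -0.17, and groups did not overlap for 5 of its genes, or 55.6% against 24.1% of all tested genes. As this list too was chosen with earlier results known, nothing is read from that share. In heme synthesis (11 tested of 13), CLPX, a mitochondrial unfoldase that activates the first enzyme, had 0.58, TMEM14C, a porphyrinogen importer, -0.30, and FECH, ferrochelatase, -0.32, around a median of -0.07. Heme transport and breakdown (8 tested of 11) had a median of 0.12, with PGRMC1 at -0.26, BLVRA at 0.19 and SLC48A1 at 0.30. SLC48A1 was 0.48 without control vector replicate 1 and 0.16 without labelled overexpression replicate 3, and BLVRA was 0.12 without control vector replicate 1. The ferroptosis list (7 tested of 9) mixed genes that protect lipids from iron-driven oxidation, such as GCH1, with ACSL4 and LPCAT3, which make the lipids that oxidise. GCH1 was its only gene to pass. ACSL4 and LPCAT3 had -0.56 and -0.23, and the other tested genes were GPX4 (-0.23), VKORC1L1 (-0.18), SLC3A2 (0.08) and DHODH (0.23). The list thus had no common direction. LPCAT3 shares 3096 of its 4693 exon bases with EMG1 on the other strand, at 19.85 to 28.37 FPKM, so its value is uncertain. All tested genes had a median of 0.05. Scaling every library to the same summed FPKM moved that median to 0.15 and, by a like amount, those of the mitochondrial, heme synthesis and cytosolic lists to 0.02, 0.04 and -0.07.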

How the data were processed

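Per the labels' protocols, RNA of SH-SY5Y cells was extracted with a micro-scale column kit, made into SMART-seq libraries and sequenced from both ends. STAR 2.7.9 and featureCounts 2.0.1, with GRCh38.p13 and hg38, are named in the submitters' processing notes, and the options are not given in the sources used here. The authors deposited FPKM per gene and library, per the file headers, and 0 value columns were left unmapped. Multiplied by length in kilobases, the FPKM of every library added up to 1e+06, and the values below 1000 fragments were multiples of 0.01 of a fragment, 44.2% to 49.0% of them whole (both within 0.001 of a fragment), so fragments are fractional and the depth could be recovered (27525077, 20466583 and 48996425 in labelled overexpression replicates 1, 2 and 3, 45102020, 29048596 and 43413832 in the controls).

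Genes with at least 1 FPKM in at least 3 of 6 libraries were tested with limma-trend (limma 3.58.1, R 4.3.3), values being log2(FPKM + 0.5), with Benjamini-Hochberg adjustment over 13984 genes at 0.05. Alternatives were other pseudocounts, filters and scalings, array weights, voom, a length correction, a replicate block and each library left out. The method was tested on simulated data. The members and lists were chosen with earlier results of these data known. Named are all members, the passing genes of each list or else its 3 of smallest p, the 5 genes most like LTF and TFRC, overlapping genes and leading pseudogenes, except for a gene that is not reported here. LRP1, ITLN1, TF, HAMP, HEPH, ACSL4, LPCAT3, GPX4, VKORC1L1, SLC3A2, DHODH, marker genes and neighbours of LTF were named after values were seen. Sequences are from GENCODE v29.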

Additional observations from a re-analysis of the deposited data

How the results depend on the processing

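LTF kept its sign in all 16 alternatives that could test it (-2.18 to -1.56) and FTL in all 17 (-0.38 to -0.22). FTL passed in none (limma adjusted p 0.0572 to 0.389). Genes passing numbered 159 (74 higher, 85 lower), 0 without a filter, 339 with a filter at 5 FPKM, 0 without the trend and 265 with array weights, and 0 to 124 with a library left out (124 when it was control vector replicate 3, 3 when it was replicate 1 of that group, and 0 for any other). In the settings with 0, 1665 to 3538 genes had an unadjusted limma p under 0.05. Passing members went from 1 to 0 without a filter, at 5 FPKM (LTF is then not tested) and without the trend, and were 0 to 1 with a library left out. Passing iron pathway genes went from 2 to 0 without a filter and without the trend, to 1 (CIAO2A) with limma-voom, and were 0 to 2 with a library left out. Rescaling to a common total gave 181 higher and 52 lower and moved the median of all genes from 0.05 to 0.15, and median-of-ratios factors gave 59 and 119. At a common total, falls that kept their sign were nearer 0, as for TFRC (-0.12), BOLA2 (-0.15), PGRMC1 (-0.15), TMEM14C (-0.19) and FDXR (-0.18). Rises were larger there, as for BLVRA (0.30), PCBP1 (0.22) and NCOA4 (0.23). With the length trend removed, FECH was -0.49 and TFRC -0.36. Signs turned for STEAP3 (0.0927) and FTH1 (0.0905) at a common total and for SLC11A2 (-0.0616) and IREB2 (-0.0570) with the length trend removed. With a library left out the ranges were -0.30 to 0.26 for STEAP3, -0.0452 to 0.18 for SLC11A2, -0.0541 to 0.0183 for FTH1, -0.0299 to 0.27 for NCOA4 and -0.0056 to 0.22 for IREB2. The cause was not tested. A library left out moved by over 1.5 times, with no change of sign, TFRC (-0.36 to -0.11), SLC40A1 (0.32 to 1.00), HMOX1 (0.23 to 0.53), SLC39A14 (0.36 to 0.66, lowest without control vector replicate 2), HERC2 (0.34 to 0.71, lowest without the same), FBXL5 (-0.34 to -0.17, nearest 0 without labelled overexpression replicate 1), GLRX3 (-0.39 to -0.15) and ISCA2 (-0.63 to -0.31; both nearest 0 without labelled overexpression replicate 2), and PCBP1 (0.02 to 0.16, lowest without labelled overexpression replicate 3). The ferritin sums kept ratios of 0.952 to 1.01 (heavy, including BEST1 added after the data were seen) and 0.767 to 0.821 (light).

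Same-numbered libraries deviated together weakly (r = -0.0235, 0.105 and 0.119), so shared numbers alone were not taken to pair them, and not every library correlated best with its own number. With the replicate number as a block 229 genes passed, with 1 member and 2 iron pathway genes.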
